A study of Mus musculus with 48 samples.

Results

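The long noncoding RNA genes examined here numbered 10, measured in C2C12 cells, an established line of mouse myoblasts that fuse into multinucleated muscle cells: Neat1, Malat1, H19, Meg3, Gas5, Snhg1, Snhg5, Snhg12, Kcnq1ot1 and Gm26813. They are 10 of the 47480 gene symbols in the count tables, and they were chosen by name with their response to stretching in these same libraries known. Their stretch values are therefore given as a description, without a test, while the contrasts between the stages, between times without stretching and between experiments were not used to choose them and were tested, on control libraries that the stretch contrasts also use. The cells grew on flexible, collagen-coated plates. A Flexcell system stretched them in all directions in repeated cycles, and stretching lasted 1 h, or else 3 h or 6 h, and non-stretched cells of the same time on the same kind of plate were the controls. Myoblasts were stretched undifferentiated, and differentiated cells after culture in low-serum medium to induce differentiation. Each of the 12 groups (2 stages, 3 times, stretched or non-stretched) held 4 libraries, 48 in all. Both stages are the same cell line, which has no genetic change of its own in any group. The experiment codes in the labels put the libraries of each group in separate experiments. The methods call libraries of the same experiment separate samples, without saying whether they came from separate cultures. The p-values therefore measure the spread between these libraries, part of which may be technical. For differentiated cells the methods give 3 independent experiments, whereas the codes show 3 only in the group stretched for 1 h.

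In myoblasts, and likewise in non-stretched differentiated cells, replicates 7 and 8 carry one experiment code and replicates 9 and 10 another, and the codes differ between the stages. The title of 1 library, stretched myoblasts at 1 h replicate 9, has a code that matches neither, and it was taken with replicate 10, so that within-experiment values of that comparison rest on this assignment. Differentiated cells stretched for 1 h are replicates 4, 7, 8 and 9, and replicate 4 stands alone in its experiment. The labels call the extracted molecule nuclear RNA, whereas the methods describe RNA of whole cells and a stranded mRNA library. The nuclear share of an RNA cannot be read from these counts. Libraries held between 48447318 and 77080730 counts. The 10 genes took between 0.0739% and 0.150% of the counts of a myoblast library and between 0.941% and 1.26% of those of a differentiated library. The labelled stages matched their markers: 8 measured genes of differentiated muscle (such as Acta1, Ckm and Myog) summed to between 8.58 and 19.4 CPM (counts scaled to library size, with TMM factors over all 48 libraries) in myoblast libraries and to between 11600 and 14200 CPM in differentiated ones. The 8 markers of cycling myoblasts summed to between 1670 and 1990 CPM in myoblasts and to between 283 and 691 CPM in differentiated cells. The 15 markers of other cell types summed to at most 2.22 CPM in any library, with Adgre1 at 0 in every group and Ibsp at 0 in 11 of the 12 groups.

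Long noncoding RNAs are transcribed and processed much like mRNAs but encode no protein that explains their role, and several act where they are made. Neat1 is the scaffold of paraspeckles, nuclear bodies built on its long isoform and the proteins Sfpq and Nono, and Malat1 accumulates in nuclear speckles beside splicing factors. H19, Meg3 and Kcnq1ot1 are imprinted, each transcribed from the chromosome of only one parent, and H19 is known for its abundance in embryonic and differentiating muscle. Gas5, Snhg1, Snhg5 and Snhg12 carry small nucleolar RNAs (snoRNAs), the guides of ribosomal RNA modification, in their introns, and their spliced exons are degraded quickly once ribosomes translate them. For Gm26813 no role is stated here.

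The ends of the transcripts bear on what an mRNA library can count. Neat1 (ENSMUSG00000092274.3) lies at chr19:5824708-5845478 on the minus strand (mm10, GENCODE vM21), and it has 4 annotated transcripts. Neat1-202, of 3004 bases, is the short isoform that ends at a polyadenylation signal, and Neat1-201, of 20771 bases, is the long isoform that is cut free by RNase P and has no poly(A) tail. Malat1 (ENSMUSG00000092341.3), at chr19:5795690-5802672 on the same strand, is cut in the same way. The last 100 bases of both Neat1 transcripts and the 100 bases of Malat1-201 that end with the same A-rich tract are shown because they set the isoforms apart, with the signal AATAAA or the tract AAAAAGCAAAA in capitals.
Neat1-202 bases 2905 to 3004: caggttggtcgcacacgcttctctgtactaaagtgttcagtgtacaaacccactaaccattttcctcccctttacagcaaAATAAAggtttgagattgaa
Neat1-201 bases 20672 to 20771: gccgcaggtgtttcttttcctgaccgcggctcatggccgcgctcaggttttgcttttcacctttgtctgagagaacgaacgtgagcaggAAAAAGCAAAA
Malat1-201 bases 6592 to 6691: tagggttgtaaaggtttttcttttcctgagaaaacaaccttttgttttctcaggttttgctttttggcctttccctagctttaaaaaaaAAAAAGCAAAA
On the transcript strand, the tract AAAAAGCAAAA occurred anywhere in 618 of 141767 annotated transcripts (0.436%) and in the last 100 bases of 64 (0.0451%), whereas AATAAA stood in the last 100 bases of 28.39%. Counts per gene do not separate Neat1-201 from Neat1-202, whose exons all lie within the single exon of the long isoform, so every Neat1 value is for both together.

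The start sites of the snoRNA host genes are shown because all 4 genes fell between the stages, as given further on. Transcripts of this class commonly begin in a run of C and T, the feature by which growth signals set the translation of ribosomal protein mRNAs. The RefSeq table of promoters (GRCm38.p6) held all 4 genes, Malat1, Meg3 and Kcnq1ot1, and not Neat1, H19 and Gm26813. Each line gives 40 bases before and 30 bases from the annotated start, with the letters TATA upstream of the start and the longest run of C and T between 10 bases before and 20 bases after the start in capitals.
Gas5 chr1:161035126-161035195 plus strand: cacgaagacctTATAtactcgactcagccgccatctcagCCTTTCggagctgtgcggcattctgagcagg
Snhg1 chr19:8723447-8723516 plus strand: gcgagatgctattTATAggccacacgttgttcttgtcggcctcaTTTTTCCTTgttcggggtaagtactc
Snhg5 chr9:88522868-88522937 minus strand: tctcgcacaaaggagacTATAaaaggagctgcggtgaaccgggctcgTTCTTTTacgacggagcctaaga
Snhg12 chr4:132308638-132308707 plus strand: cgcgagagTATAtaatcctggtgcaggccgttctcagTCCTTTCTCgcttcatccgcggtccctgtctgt
TATA, which reads the same on both strands, stood within the 40 bases upstream in all 4, against 7.63% of the 32851 starts in the table. It was also present at 2 of 15 starts of other snoRNA host genes. Gas5 has another listed start upstream, without TATA and with a longest run of 3. That upstream start overlaps Zbtb37 on the opposite strand, and between 9.74% (Gas5) and 14.65% (Snhg5) of the 31-base stretches of the 4 genes occur in transcripts of other genes, so a part of their reads is uncertain. The run was 6 bases long in Gas5, 7 in Snhg5, and 9 in Snhg1 and Snhg12. At least as long a run occurred at 28.7%, 17.9% and 7.1% of all starts for these lengths. These are matches of letters and not shown to be sites.

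Levels between genes were compared per kb of annotated exon in the 12 non-stretched libraries of a stage. In myoblasts H19 was highest, at 133 ± 18.0 CPM per kb (mean ± SD, n = 12), followed by Malat1 at 56.7 ± 10.8 CPM per kb. Snhg5 stood at 24.5 ± 2.31, Snhg1 at 14.9 ± 1.46, Gas5 at 9.74 ± 1.25, Snhg12 at 8.38 ± 0.588 and Neat1 at 6.40 ± 1.38 CPM per kb. The ranges of Gas5 (7.87 to 11.8), Snhg12 (7.59 to 9.69) and Neat1 (4.84 to 9.21 CPM per kb) overlapped, so that their order is not firm. For Neat1 the length used in both stages was that of the long isoform, 20771 bases. Over the 3004 bases of Neat1-202 the same counts would give a higher value per kb. The place of Neat1 among these genes therefore depends on the isoform counted and is not firm in either stage. Gm26813 reached 0.290 ± 0.0420 and Kcnq1ot1 0.0325 ± 0.00984 CPM per kb, the latter spread over a single unspliced model of 93092 bases. In differentiated cells H19 stood at 4205 ± 244 CPM per kb and Malat1 at 131 ± 28.3. The next 5 genes lay between 3.49 ± 0.671 (Gas5) and 8.23 ± 0.997 CPM per kb (Snhg5), with Neat1 at 6.96 ± 2.08 among them, and each overlapped the next in its range. Snhg1 and Snhg12 exchanged places when the longest transcript replaced the exon union as the length, a change that left the length of Neat1 the same. Meg3 was not detectable at this depth: it had 3 counts in 1 library (differentiated, non-stretched, 3 h, replicate 10) and 0 in each of the other 47, and a count of 0 allows up to 3 counts in a library.

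**Figure D1:**
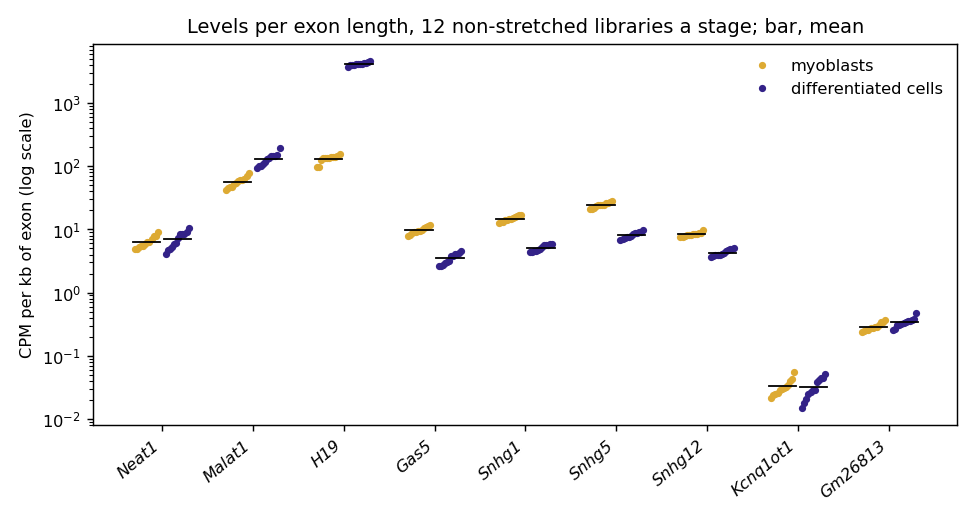
Levels in CPM per kb of exon on a log scale, in 12 non-stretched libraries of each stage (points, sorted within a gene) with their mean (bar), for the 9 genes with counts. H19 stood at 133 CPM per kb in myoblasts and 4205 in differentiated cells, the 4 snoRNA host genes were lower in differentiated cells, and Neat1 and Kcnq1ot1 overlapped between the stages.

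The first test that did not share its contrast with the choice of genes asked which of them differ between the stages without stretching. Of the 9 genes with enough counts, 6 passed the test (edgeR's quasi-likelihood test with a Benjamini-Hochberg adjusted p below 0.05, and a log2 fold change of 0.58 or more up or down), 2 higher and 4 lower in differentiated cells. Among all 16269 genes tested 51.8% were called, 27% as higher and 24.8% as lower, so that calls were common in this comparison. Each stage came from experiments of its own, and stage and experiment cannot be told apart.

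H19 rose most, from 327 ± 44.2 CPM in myoblasts to 10345 ± 601 CPM in differentiated cells (n = 12 each). Its log2 fold change was 4.96 (SE 0.0654, edgeR adjusted p = 1.5e-29). The libraries of myoblasts lay between 238 and 386 CPM and those of differentiated cells between 9191 and 11362 CPM, so that this RNA alone held 1.02% of all counts in non-stretched differentiated cells. H19 is transcribed at chr7:142575529-142578143 on the minus strand beside Igf2, which encodes insulin-like growth factor 2 and shares the enhancers of H19 from the other parental chromosome. Malat1 rose from 396 ± 75.6 to 916 ± 198 CPM (a log2 fold change of 1.17 with SE 0.108 and an edgeR adjusted p = 1.04e-10). Its myoblast libraries reached at most 545 CPM and its differentiated libraries began at 668 CPM.

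The 4 snoRNA host genes fell in differentiated cells. Gas5 fell from 36.6 ± 4.71 to 13.1 ± 2.52 CPM (a log2 fold change of -1.50 with SE 0.0819 and an edgeR adjusted p = 1.1e-15). Snhg1 fell from 44.2 ± 4.32 to 15.1 ± 1.77 CPM (log2 fold change -1.57, SE 0.0532). Snhg5 fell from 42.3 ± 4.0 to 14.2 ± 1.72 CPM (log2 fold change -1.60, SE 0.0504). The smallest fall was that of Snhg12, from 20.1 ± 1.41 to 10.4 ± 1.15 CPM (log2 fold change -0.99, SE 0.0505). The edgeR adjusted p of Snhg1, Snhg5 and Snhg12 were 2.04e-20, 3.82e-21 and 2.82e-16. All 4 had ranges that did not overlap between the stages, for example 29.6 to 44.3 CPM against 10.1 to 16.9 CPM for Gas5. The share of all genes with stages apart in this way was not counted. The separation is therefore a description and not a trait of these genes, as it is for H19 and Malat1.

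Neat1, Kcnq1ot1 and Gm26813 did not pass this test. Neat1 had 133 ± 28.6 CPM in myoblasts and, in differentiated cells, 144 ± 43.2 CPM (log2 fold change 0.08, SE 0.140, edgeR adjusted p = 0.576). Kcnq1ot1 had 3.03 ± 0.916 and 2.97 ± 1.10 CPM (log2 fold change -0.05, SE 0.176, adjusted p = 0.77). Gm26813 had 1.04 ± 0.151 and 1.21 ± 0.199 CPM, a log2 fold change of 0.19 (SE 0.0901, adjusted p = 0.0487) that missed the fold limit, in a comparison where 89.9% of all genes had an adjusted p below 0.05. Malat1, the nearest of these genes to Neat1 on the chromosome and read in the same direction, had a called stage difference, and whether the 2 genes differ in it was not tested.

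Genes tied to the same nuclear bodies or domains were listed to set these values in context, and their counts stand beside the 51.8% of all genes called in this comparison. Of 20 paraspeckle proteins, 15 fell and 1 rose between the stages, with a median log2 fold change of -0.80 against 0.0058 over all genes. Dazap1 (log2 fold change -1.26), Rbm14 (-1.22) and Rbmx (-1.16), RNA-binding proteins, fell most, and Zc3h6 rose (0.86, from 8.58 to 16.0 CPM). Of 14 nuclear speckle proteins, 7 fell and 0 rose, with a median of -0.55, led by the splicing factors Srsf2 (-1.26), Srsf1 (-1.25) and Srsf3 (-1.12). Of the 10 other snoRNA host genes with enough counts, 7 fell and 0 rose, with a median of -1.14. Dancr (-1.88), Snhg3 (-1.66) and Snhg4 (-1.64) fell most. Of the 11 tested imprinted genes in the H19, Kcnq1ot1 and Meg3 domains, 8 rose and 0 fell, with a median of 1.91. None of those that rose was a listed gene of the Meg3 domain (Dlk1, Rtl1, Rian, Mirg, Dio3 and Begain). Only 11 of the 18 listed imprinted genes had enough counts, and how many of the Meg3 domain were among them is not given. No lack of a rise can therefore be read for that domain. Igf2 went from 0.896 CPM to 303 CPM (log2 fold change 8.39, SE 0.0681, edgeR adjusted p = 6.85e-34), and Cdkn1c, an inhibitor of the cell cycle, from 1.82 to 6.99 CPM (log2 fold change 1.91). Kcnq1, the potassium channel gene on the strand opposite Kcnq1ot1, stood at 0.00668 CPM in myoblasts, where Kcnq1ot1 had 3.03 CPM, and at 0.403 CPM after differentiation. Of 22 other named long noncoding RNAs, 6 rose and 5 fell, while 59.1% of 1426 annotated long noncoding RNA genes were called. Trp53cor1 (log2 fold change 3.56) and Airn (2.24) were among those that rose, and Mir17hg (-2.33), the host of the miR-17 cluster, Miat (-1.95) and Pvt1 (-1.18) fell most.

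Stretching for 1 h in myoblasts was the contrast in which Neat1 stood lowest. The 4 non-stretched libraries had 148, 101, 191 and 111 CPM of Neat1 (replicates 7 to 10), and the 4 stretched libraries 54.4, 39.6, 29.7 and 33.6 CPM. Every stretched library lay under the lowest control, and the groups did not overlap. The means were 138 ± 41.1 and 39.3 ± 10.8 CPM, and the fitted log2 fold change was -1.82 (SE 0.215). The log2 difference within replicates 7 and 8 was -1.40 and within replicates 9 and 10 it was -2.21. At 3 h the controls had 113, 164, 113 and 122 CPM and the stretched libraries 88.3, 111, 80.3 and 137 CPM, which overlapped (log2 fold change -0.32, SE 0.148). At 6 h the controls had 165, 134, 130 and 103 CPM and the stretched libraries 117, 186, 162 and 123 CPM, which overlapped too (log2 fold change 0.16, SE 0.155). Neat1 levels of stretched myoblasts were thus below all controls at 1 h and mixed with them at 3 h and 6 h.

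In differentiated cells at 1 h, Neat1 had 178, 121, 177 and 179 CPM in the controls and 56.6, 63.8, 74.7 and 134 CPM in the stretched replicates 4, 7, 8 and 9. The stretched replicates 4, 7 and 8 lay under all controls, and the remaining one, replicate 9, above the lowest control, which was replicate 8 at 121 CPM, and below replicates 9 and 10 of the controls (177 and 179 CPM). The log2 fold change was -0.99 (SE 0.249). It was -0.85 (SE 0.243) without replicate 4 and -1.33 (SE 0.149) without replicate 9. A fit that included the experiment gave -0.82 (SE 0.159). Neat1 was past both limits in the latter 2 fits. At 3 h the controls had 102, 85.6, 219 and 150 CPM and the stretched libraries 94.2, 113, 74.8 and 77.7 CPM (log2 fold change -0.63, SE 0.254). The log2 difference was 0.15 within replicates 7 and 8 and -1.25 within replicates 9 and 10. Without the control replicate 9 at 219 CPM the log2 fold change was -0.32 (SE 0.186). At 6 h the controls had 110, 96.5, 189 and 126 CPM and the stretched libraries 86.1, 122, 118 and 192 CPM (log2 fold change -0.01, SE 0.245), with no separation.

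**Figure D2:**
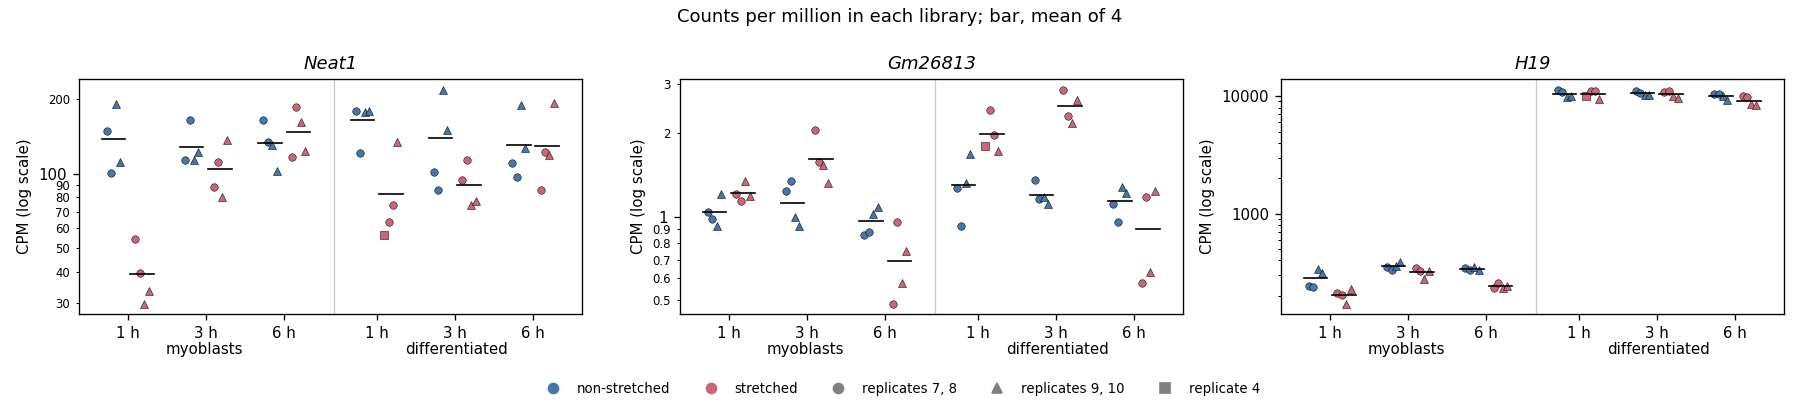
Levels of Neat1, Gm26813 and H19 in CPM on a log scale in each of the 48 libraries, by stage, time and stretching; marker shape gives the replicate numbers and the bar the mean of 4. Stretched myoblasts at 1 h lie between 29.7 and 54.4 CPM of Neat1, below all 4 controls, and stretched differentiated cells at 3 h lie between 2.18 and 2.87 CPM of Gm26813, above all 4 controls.

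The non-stretched libraries allowed a test of how Neat1 varies between experiments. In differentiated cells, Neat1 was higher in replicates 9 and 10 (173 ± 32.0 CPM, n = 6) than in replicates 7 and 8 (116 ± 33.1 CPM, n = 6), with a log2 fold change of 0.61 (SE 0.141, edgeR adjusted p = 0.0102). It was the only gene of the 9 past both limits, where 1.26% of 16059 genes were called and 0.741% called higher, and its log2 fold change was 0.54, 0.50 and 0.53, short of the fold limit, without the 3 h replicates 8 or 9 or the 6 h replicate 9. Of the others, 5 had adjusted p under 0.05 (as 17.7% of all genes did) and smaller differences, among them Gas5 (log2 fold change 0.43, SE 0.0790, adjusted p = 0.00309) and H19 (-0.12, SE 0.0269, adjusted p = 0.00743). In myoblasts none of the 9 was called by edgeR between the experiments, where 0.201% of all genes were. H19 alone had an adjusted p under 0.05 (0.0444, log2 fold change 0.20), as 4.41% of all genes did. It alone also had an unadjusted p under 0.05, as 2938 of 15430 genes had, and DESeq2 called 0 of the 9. Neat1 stood there at 138 ± 26.7 and 128 ± 32.2 CPM (log2 fold change -0.10, SE 0.145, adjusted p = 0.748).

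Time in culture without stretching was tested as well, on the same control libraries that serve the stretch comparisons. In non-stretched myoblasts at 3 h against 1 h edgeR called 0 of the 9 genes (0.092% of all genes), and DESeq2 called 0. An unadjusted p under 0.05 with edgeR was found for 6 of the 9, as for 2600 of all 15213 genes tested. Under the fold limit but with adjusted p under 0.05, as 2.52% of all genes were, stood Snhg5 (log2 fold change -0.25, SE 0.0497, adjusted p = 0.0204), Snhg1 (-0.25, SE 0.0544, adjusted p = 0.0303) and H19 (0.35, SE 0.0880, adjusted p = 0.0479). Kcnq1ot1 had the largest difference, 0.62 (SE 0.183, adjusted p = 0.0898), which was called with the experiment as a covariate. At 6 h against 1 h edgeR called 0 in myoblasts (0.131% of all genes). Of the 9 genes 1 had an unadjusted p under 0.05, as did 2256 of 15213 genes. In differentiated cells edgeR called 0 (0.0949%), also with 1 at an unadjusted p under 0.05 (2249 of 15813 genes). At 3 h against 1 h in differentiated cells no gene of the table passed edgeR's adjusted limit (0.0%). An unadjusted p under 0.05 was found for 0 of these 9 and for 897 of 15813 genes. DESeq2 called 0 of the 9 in each of these. Neat1 in non-stretched myoblasts changed by -0.09 at 3 h (SE 0.181, adjusted p = 0.852) and -0.05 at 6 h (SE 0.181, adjusted p = 0.939) on the log2 scale, against the fitted -1.82 between stretched and non-stretched cells at 1 h.

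Neat1 also varied more between replicates than most genes. The SD of its log2 CPM within groups was 0.338 in myoblasts and 0.451 in differentiated cells. The medians of genes of like mean count were 0.0491 and 0.0608, and 99.9% of them lay below Neat1 in both stages. With the group means removed, Neat1 and Gas5 deviated together (Pearson r = 0.824 over 24 myoblast libraries and 0.815 over 24 differentiated libraries, a description over libraries that share experiments). The other snoRNA host genes had r with Neat1 of 0.771 (Snhg1), 0.733 (Snhg5) and 0.411 (Snhg12) in myoblasts. In differentiated cells r was 0.573 (Snhg1), 0.642 (Snhg5) and 0.636 (Snhg12). Among the genes whose log2 CPM was most like that of Neat1 over the 24 libraries, of the 11401 (myoblasts) or 11871 (differentiated) genes averaging 100 counts or more, were 0610030E20Rik (r = 0.95) and Zfp329 (0.943) in myoblasts. In differentiated cells they were BC037034 (0.952), Vmp1 (0.867) and Napb (0.867).

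The partners and neighbours of Neat1 gave few calls with stretching. Of the 20 paraspeckle proteins, edgeR called 0 in 5 of the 6 stretch comparisons, in which between 0.27% and 2.04% of all genes were called, and the list medians lay between -0.02 and 0.13. The exception was Zc3h6, which fell from 8.24 to 4.98 CPM in myoblasts at 6 h (log2 fold change -0.71, SE 0.156, edgeR adjusted p = 0.0065). Of the 14 nuclear speckle proteins none was called in the 6 comparisons. Their median log2 fold change lay between 0.02 and 0.15. Frmd8, 4.2 kb from Neat1, had log2 fold changes between -0.08 and 0.15 in the 6 comparisons. It was not called in any of them.

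Malat1 had no stretch difference past both limits. Its means were 378 and 465 CPM in control and stretched myoblasts at 1 h (log2 fold change 0.30, SE 0.192), 414 and 407 CPM at 3 h (-0.03, SE 0.142) and 396 and 571 CPM at 6 h (0.55, SE 0.261). In differentiated cells the log2 fold changes were -0.06, -0.02 and 0.09, with SE between 0.194 and 0.259. Single libraries carried the larger differences. In stretched myoblasts at 6 h, replicate 7 had 980 CPM and the others 429, 488 and 387 CPM, and without it the log2 fold change was 0.15 (SE 0.136). In stretched myoblasts at 1 h, replicate 8 had 687 CPM, and without it the value was 0.04 (SE 0.119). In stretched differentiated cells, replicate 9 had 1229 CPM at 3 h and 1853 CPM at 6 h, each the highest of its group. Without these libraries the log2 fold changes were -0.28 (SE 0.139) and -0.27 (SE 0.164).

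Kcnq1ot1 was high in the same 4 libraries. This RNA, at chr7:143203458-143296549 on the minus strand, lies antisense within Kcnq1 and silences neighbouring imprinted genes on the paternal chromosome. In stretched myoblasts at 6 h it had 8.87 CPM in replicate 7 (567 counts) and 2.91, 2.47 and 3.10 CPM in the others, for a log2 fold change of 0.75 (SE 0.369) that was 0.12 (SE 0.159) without that library. At 1 h replicate 8 had 6.77 CPM, and the others had between 1.83 and 2.91 CPM (log2 fold change 0.39, SE 0.355; -0.21 without it). In stretched differentiated cells replicate 9 had 6.68 CPM at 3 h and 7.94 CPM at 6 h. The log2 fold changes there were 0.42 (SE 0.339) and 0.17 (SE 0.406), and -0.06 and -0.40 without replicate 9. The log2 CPM of Malat1 and Kcnq1ot1 correlated at r = 0.803 over the 24 myoblast libraries and r = 0.819 over the 24 differentiated ones, and at 0.856 and 0.874 with the group means removed. In differentiated cells Kcnq1ot1 was the gene most like Malat1 of all 11871 compared, and in myoblasts it ranked 3.

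A shift between long and short genes moved with Kcnq1ot1. For each library the median deviation from the stage mean (log2 CPM) of genes with at least 10 kb of exon was set against that of genes with under 2 kb (1127 and 1491 genes in myoblasts, 1175 and 1524 in differentiated cells). The difference ranged from -0.151 to 0.12 in myoblast libraries and from -0.152 to 0.188 in differentiated ones. Across 24 libraries it correlated with Kcnq1ot1 at r = 0.764 in myoblasts and 0.874 in differentiated cells, and with Malat1 at 0.472 and 0.756. For Neat1 the values were 0.263 and -0.257. The genes most like Kcnq1ot1 were Vcan (r = 0.922, 14462 bases of exon), Birc6 (0.908, 25772 bases) and Srrm2 (0.903, 12842 bases) in myoblasts. In differentiated cells they were Dync1h1 (0.915, 15658 bases), Polr2a (0.911, 7067 bases) and Prpf8 (0.910, 7461 bases), the latter 2 under the limit of 10 kb. The library at the top of the shift, stretched differentiated replicate 9 at 6 h (0.188), was also the one with the most Malat1. The other libraries high in Kcnq1ot1 stood at 0.109 (stretched myoblasts, 6 h replicate 7), 0.0256 (stretched myoblasts, 1 h replicate 8) and 0.0387 (stretched differentiated cells, 3 h replicate 9). The part of this shift in the Malat1 and Kcnq1ot1 values was not tested.

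**Figure D3:**
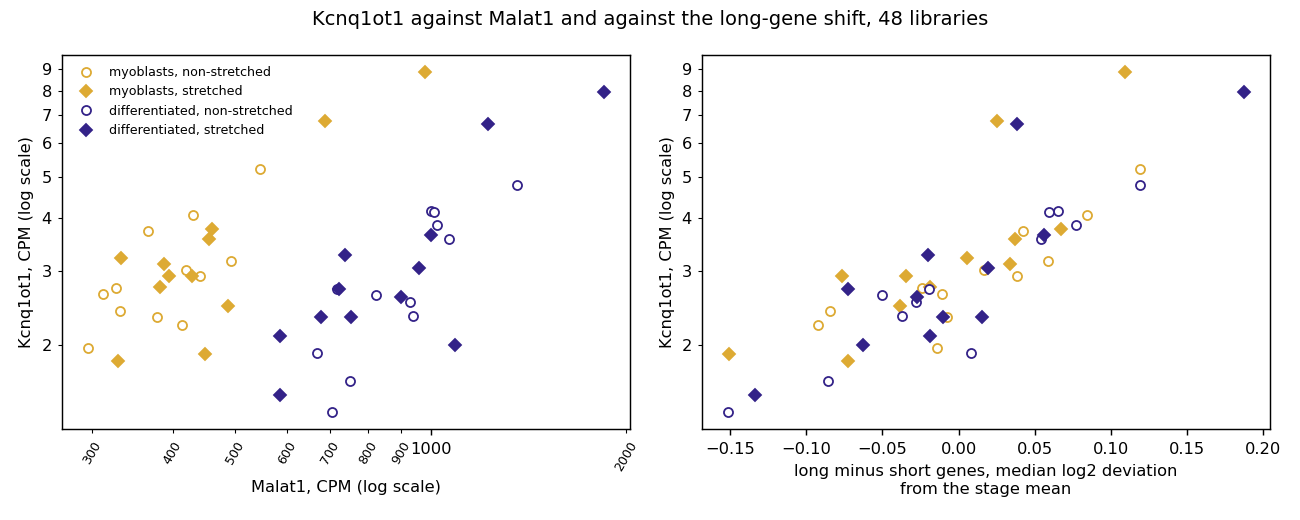
Left, Kcnq1ot1 against Malat1 in CPM on log scales; right, Kcnq1ot1 in CPM (log scale) against the long-minus-short gene difference of each library (log2), for 48 libraries coloured by stage, filled where stretched. The 4 libraries above 6 CPM of Kcnq1ot1 are all stretched, and Kcnq1ot1 is higher in libraries with a larger long-gene difference (r = 0.764 in myoblasts and 0.874 in differentiated cells).

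Between Malat1 and its own locus, strand matters. Gm37376, a short model on the plus strand within Malat1 (chr19:5801941-5802393), rose between the stages by 1.48 on the log2 scale (edgeR adjusted p = 5.53e-13), beside 1.17 for Malat1. The library kit marks strand, but the strand setting of the counting is not given in the sources used here, so reads of the pair cannot be told apart.

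H19 was lower in stretched myoblasts, within the fold limit. At 1 h the controls had 244, 238, 338 and 311 CPM and the stretched libraries 212, 203, 172 and 228 CPM, without overlap (log2 fold change -0.47, SE 0.114). Its log2 difference was -0.21 within replicates 7 and 8 and -0.71 within replicates 9 and 10. At 3 h all 4 stretched libraries (346, 327, 276 and 324 CPM) lay under the control mean of 358 CPM, and the groups overlapped (-0.18, SE 0.0591). At 6 h the controls had 346, 330, 350 and 333 CPM and the stretched libraries 236, 257, 233 and 244 CPM, again without overlap (-0.47, SE 0.0331). In differentiated cells, where H19 was far more abundant, the log2 fold changes were -0.02, -0.02 and -0.13, and all 3 pairs of groups overlapped. The genes most like H19 were Igfbp5 (r = 0.948), Zfp280d (0.932) and Fgfr4 (0.908) in myoblasts and Acta1 (0.939), skeletal muscle actin, Csrp3 (0.933) and Tmem182 (0.928) in differentiated cells. Nctc1, a noncoding gene 17 kb from H19 on the same strand, was not tested in myoblasts for low counts and fell in differentiated cells at 6 h (log2 fold change -0.65, edgeR adjusted p = 0.0159). Of the other imprinted genes of these domains, 0 of 9 in myoblasts and 0 of 11 in differentiated cells were called by edgeR in any stretch comparison.

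The snoRNA host genes differed from their controls by less than the fold limit at every time, and Snhg12 in myoblasts was below its controls at 1 h and above them at 3 h. At 1 h, Snhg12 had 23.3, 20.6, 21.4 and 19.5 CPM in the controls and 16.7, 14.6, 17.9 and 16.7 CPM in the stretched libraries, all below the controls (log2 fold change -0.36, SE 0.0655). Gas5 had 43.1, 34.5, 44.3 and 35.6 CPM against 32.7, 29.7, 29.5 and 30.4 CPM, also without overlap (-0.37, SE 0.0768). Snhg1 and Snhg5 overlapped, with log2 fold changes of -0.05 (SE 0.0638) and 0.01 (SE 0.0586).

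At 3 h in myoblasts Snhg12 lay on the other side of its controls from 1 h, and Snhg1 was apart from its controls too. Snhg1 had 37.2, 42.1, 39.6 and 39.3 CPM in the controls and 47.8, 46.4, 47.7 and 47.3 CPM in the stretched libraries, which were all higher (log2 fold change 0.25, SE 0.0355). Snhg12 had 18.8, 19.9, 18.2 and 18.5 CPM against 22.1, 21.1, 22.9 and 23.5 CPM, also all higher (0.24, SE 0.0418). Snhg5 was at 0.11 (SE 0.0381) and Gas5 at 0.06 (SE 0.0558), with overlap. At 6 h all 4 had a fitted log2 fold change below 0: -0.24 for Snhg1 (SE 0.0473), -0.22 for Gas5 (SE 0.0663), -0.20 for Snhg5 (SE 0.0498) and -0.13 for Snhg12 (SE 0.0560). Snhg1 and Snhg5 did not overlap their controls at 6 h. The control libraries themselves were lower at 3 h than at 1 h for all 4. For Snhg1 and Snhg5 the adjusted p was under 0.05, as given with the test of time. The log2 fold change of the controls was -0.29 for Gas5 (edgeR adjusted p = 0.0647) and -0.16 for Snhg12 (edgeR adjusted p = 0.115).

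In differentiated cells Snhg1 had 13.3, 12.9, 17.2 and 16.9 CPM in the 3 h controls and between 18.7 and 19.5 CPM in the 4 stretched libraries, all higher than the controls (log2 fold change 0.34, SE 0.0893). The log2 difference was 0.54 within replicates 7 and 8 and 0.18 within replicates 9 and 10. The other 3 host genes had log2 fold changes between 0.02 (Gas5) and 0.11 (Snhg5) at that time. At 1 h and 6 h the 4 genes lay between -0.16 and 0.15. Within groups the 4 deviated together in differentiated cells: with group means removed, every pair had r between 0.818 and 0.896 over the 24 libraries. Differences between experiments remain in these values. In non-stretched differentiated cells all 4 were higher in replicates 9 and 10 than in replicates 7 and 8. The log2 fold changes were 0.43 (Gas5), 0.22 (Snhg1), 0.24 (Snhg5) and 0.24 (Snhg12), and their part in r was not tested. In myoblasts the pairs ranged from 0.412 (Snhg1 and Snhg12) to 0.874 (Snhg1 and Snhg5), with Snhg5 and Snhg12 at 0.456. Among all genes, those most like Snhg5 in myoblasts were Nop56 (r = 0.917), a core protein of box C/D snoRNPs whose own gene hosts snoRNAs, and Snhg17 (0.884). The gene most like Snhg12 was Gm17300 (0.893), 41 kb away.

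**Figure D4:**
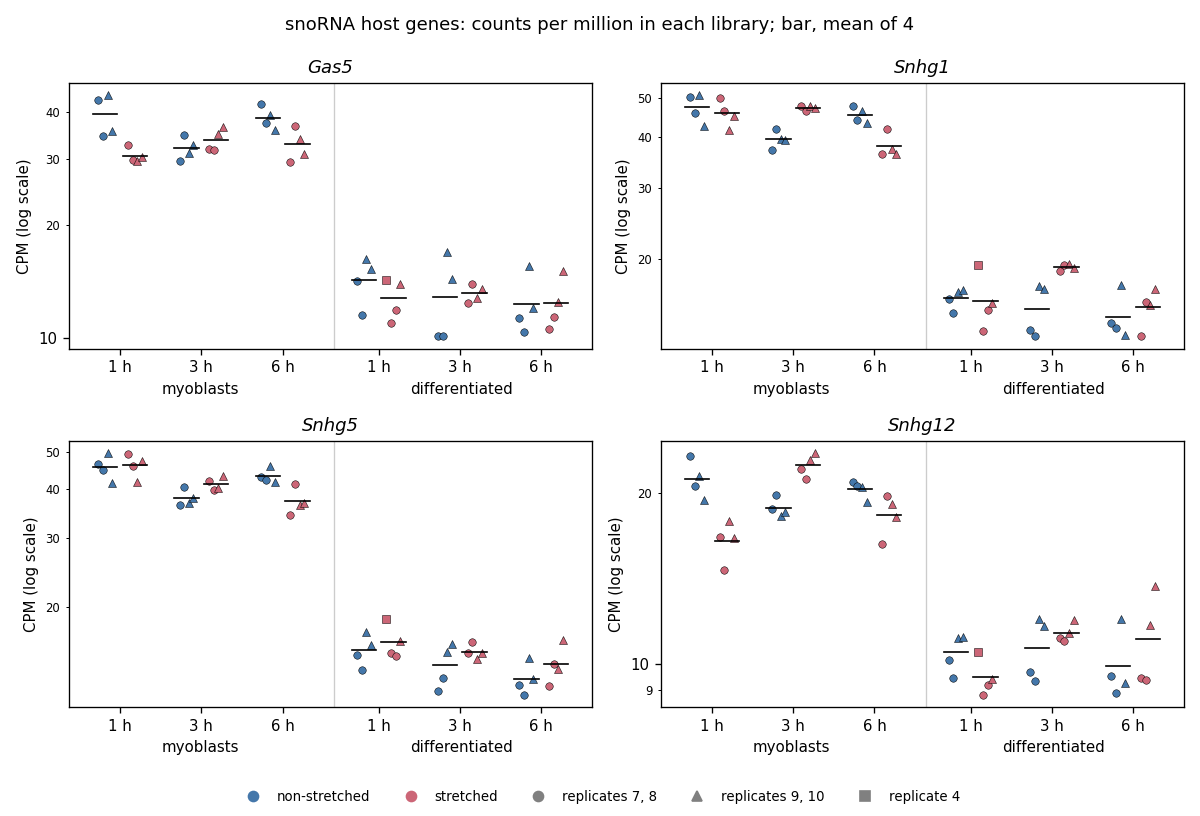
Levels of Gas5, Snhg1, Snhg5 and Snhg12 in CPM on a log scale in each of the 48 libraries; marker shape gives the replicate numbers and the bar the mean of 4. All 4 genes are lower in differentiated cells, and in myoblasts the stretched libraries of Snhg12 lie below the controls at 1 h and above them at 3 h.

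The other snoRNA host genes, listed by name with earlier results of these data known, had 0 of 10 called by edgeR in each of the 6 stretch comparisons. Their median log2 fold change in myoblasts was -0.19 at 1 h, 0.11 at 3 h and -0.18 at 6 h, against medians of all genes between -0.0074 and 0.0024. In differentiated cells it was 0.02, 0.10 and 0.03. Beside Snhg12, Gm17300, a noncoding gene on the strand opposite Snhg3 and within its span, fell in myoblasts at 1 h (log2 fold change -0.96, edgeR adjusted p = 8.42e-04). Snora73b, a snoRNA within Snhg3, fell at 6 h (-0.58, adjusted p = 0.0261). Mature snoRNAs are too short and lack the tail for an mRNA library, and this value is for whatever part of their reads was captured.

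Gm26813 (ENSMUSG00000097819.1) is a noncoding gene of 3587 exon bases at chr1:59488480-59492605 on the minus strand, 1.5 kb beyond the end of Fzd7, which encodes a Wnt receptor on the opposite strand. No 31-base stretch of it occurs in another gene's transcripts. In differentiated cells at 3 h it had 1.35, 1.16, 1.17 and 1.11 CPM in the controls and 2.87, 2.31, 2.18 and 2.63 CPM in the stretched libraries, all higher (between 68 and 77 counts against 138 to 176). The means were 1.20 ± 0.108 and 2.50 ± 0.314 CPM, and the log2 fold change was 1.06 (SE 0.122). It was 1.03 within replicates 7 and 8 and 1.06 within replicates 9 and 10. At 1 h the controls had 1.27, 0.922, 1.32 and 1.68 CPM and the stretched libraries 1.80, 2.42, 1.97 and 1.72 CPM, without overlap (log2 fold change 0.60, SE 0.186). The highest control, 1.68, and the lowest stretched library, 1.72 CPM, nearly met. At 6 h the stretched libraries had 0.578, 1.17, 0.633 and 1.23 CPM and the controls 1.11, 0.954, 1.28 and 1.21 CPM, which overlapped (-0.33, SE 0.246).

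In myoblasts Gm26813 had a log2 fold change of 0.23 (SE 0.129) at 1 h, 0.52 (SE 0.163) at 3 h and -0.46 (SE 0.202) at 6 h. All 4 stretched libraries lay above the control mean at 1 h and at 3 h and all 4 below it at 6 h. At 3 h the controls had 1.24, 1.34, 0.994 and 0.924 CPM and the stretched libraries 2.04, 1.57, 1.54 and 1.32 CPM. Fzd7 had log2 fold changes between -0.12 and 0.28 in the 6 comparisons and was not called. Libraries held between 31 and 176 counts of Gm26813 and few counts limit its precision.

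Across the 6 stretch comparisons, the counts past both limits were small. In myoblasts at 1 h, 1 of the 9 genes with enough counts, Neat1, was past both limits, lower (1.25% of 14938 genes were called, 0.997% as lower). In 4 of the 9 the stretched group lay wholly below the controls, which 8.03% of all genes did. At 3 h none of the 9 was past both limits (1.71% of all genes were), and DESeq2 called 0. An unadjusted p under 0.05 with edgeR was found for 5, as for 6140 of 14813 genes. At 6 h none was past both limits (2.17% of all genes), and DESeq2 called 0. There 6 had an unadjusted p under 0.05, as 5814 of 14938 genes had. In differentiated cells none was past both limits at 1 h (0.27% of all genes, 0 by DESeq2, and Neat1 with the experiment as a covariate). An unadjusted p under 0.05 was found there for 2, as for 1386 of 15538 genes. At 3 h Gm26813 was past both limits, higher (1.63% of 15513 genes were called, 0.89% as higher). At 6 h none was (2.04%, 0 by DESeq2), and 0 of the 9 but 5523 of 15433 genes had an unadjusted p under 0.05. Groups lay wholly apart for 2 genes in myoblasts at 3 h, both higher (17.1% of all genes), for 3 at 6 h, all lower (16.3%), and in differentiated cells for 1 at 1 h (2.46% higher), 2 at 3 h (12.5% higher) and 0 at 6 h (26.4% in either direction). With an adjusted p under 0.05 alone as the limit, the counts in myoblasts were 4 of 9 at 1 h (5.92% of all genes), 5 at 3 h (31.9%) and 4 at 6 h (27.2%), and in differentiated cells 0 at 1 h (0.663%), 2 at 3 h (22.2%) and 0 at 6 h (22.3%). These contrasts chose the genes, and nothing is read from the shares.

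**Figure D5:**
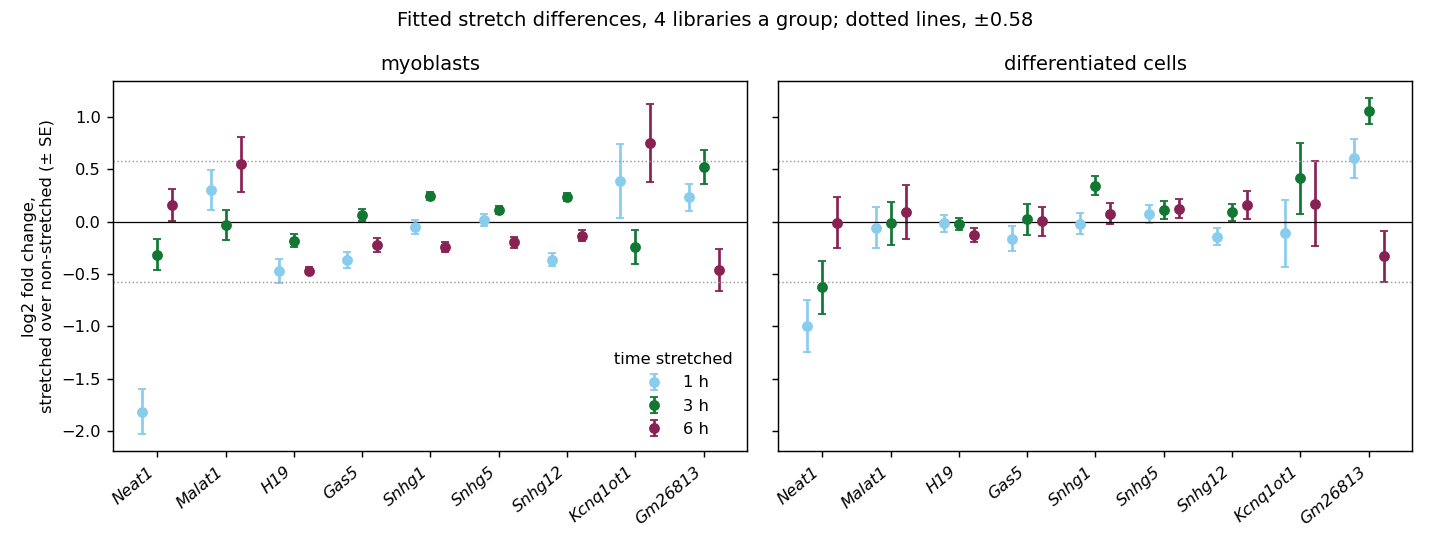
Fitted log2 fold change (± SE) of stretched over non-stretched cells at each time for the 9 genes with enough counts, in myoblasts (left) and differentiated cells (right); each point is a fit to 4 and 4 libraries and dotted lines mark 0.58 in either direction. Neat1 lies at -1.82 in myoblasts and -0.99 in differentiated cells at 1 h and near 0 at 6 h, and Gm26813 lies above 0 at 1 h and 3 h and below it at 6 h in both stages.

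Other annotated long noncoding RNA genes give the setting. In myoblasts at 1 h, edgeR called 8 higher and 46 lower of 1139 (4.74%), beside 0.932% of 12236 protein-coding genes, and their median log2 fold change was -0.08 against 0.0032 for the protein-coding genes. At 3 h it called 11 higher and 22 lower of 1083 (3.05%, beside 1.58% of protein-coding genes) and at 6 h 25 higher and 15 lower of 1123 (3.56%, beside 2.04%). In differentiated cells it called 1 higher and 6 lower of 1231 at 1 h (0.569%, beside 0.25%), 20 and 11 of 1216 at 3 h (2.55%, beside 1.52%), and 10 and 26 of 1230 at 6 h (2.93%, beside 2.01%). Among those averaging 100 counts or more, Neat1 had the largest fall at 1 h in myoblasts, followed by Gm37795 (2.61 CPM in controls and 1.11 CPM in stretched cells, a log2 fold change of -1.25 with an edgeR adjusted p = 0.00277). At 3 h in myoblasts AY036118 rose (0.76, edgeR adjusted p = 0.0281), with groups that overlapped. Its stretched libraries spread widely, at 2662 ± 1303 CPM beside 1562 ± 253 CPM in controls. The gene 4933431E20Rik fell at 3 h (-0.61, edgeR adjusted p = 3.87e-05). At 6 h Spata5l1 (0.65) and Gm43737 (0.58) rose. The annotation used lists Spata5l1 as a processed transcript, and whether its locus also encodes a protein was not examined.

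In differentiated cells 4632415L05Rik fell at 1 h (11.7 CPM in controls and 7.77 CPM in stretched cells, a log2 fold change of -0.58 with an edgeR adjusted p = 0.0365). At 3 h Gm26813 had the largest rise, followed by Gm43031 (from 2.69 to 5.45 CPM, 1.02, adjusted p = 7.97e-04), and Trerf1 fell (-0.76). Like Spata5l1, Trerf1 is listed by the annotation as a processed transcript, and whether its locus also encodes a protein was not examined. At 6 h Gm43860 rose (0.70, adjusted p = 0.00594) and Atcayos fell (-0.94, adjusted p = 0.00118). The other named long noncoding RNAs were listed with earlier results of these data known, so their stretch values are a description. Of the 22 tested, 2 fell and 0 rose in myoblasts at 1 h: Dnm3os, from 13.5 to 7.14 CPM (-0.93, SE 0.137, adjusted p = 0.0023), and Hotair, from 2.17 to 1.36 CPM (-0.68, SE 0.141, adjusted p = 0.0156). Trp53cor1, a target of p53, fell at 6 h in both stages, from 0.496 to 0.179 CPM in myoblasts (-1.45, SE 0.248, adjusted p = 0.00177) and from 6.36 to 3.98 CPM in differentiated cells (-0.68, SE 0.0989, adjusted p = 0.00164). Gm28653 fell in myoblasts at 3 h (-0.70, adjusted p = 5.47e-04).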

How the data were processed

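The methods describe RNA of whole cells (RNeasy with DNase), stranded mRNA libraries (Kapa) and paired reads on 1 NovaSeq flow cell. The authors aligned reads with STAR to mm10, quantified them with Salmon and deposited, for each stage, whole-number counts per gene symbol without normalization. All columns were used. Salmon divides reads that transcripts share: between 0% (Gm26813) and 14.65% (Snhg5) of the 31-base stretches of a gene occurred in others.

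Counts were filtered with filterByExpr, scaled with TMM and fitted in edgeR 4.0.16 (R 4.3.3), whose quasi-likelihood test was used, adjusted over all genes tested. Stage and experiment fits had time as a term. Printed CPM use TMM factors over 48 libraries, and log2 CPM a prior count of 1. Of 47480 symbols, 45213 matched GENCODE vM21. The procedure was tested on simulated data. Alternatives were DESeq2 1.42.0, RLE, other filters, no fold limit, each library left out, all libraries of a stage, covariates and stretched libraries for the stage test. The genes and lists were chosen with earlier results of these data known. Named genes are these 10, up to 3 called genes of each list and direction, annotated neighbours within 50 kb, the 3 genes of highest r, and the 2 noncoding genes of largest rise and fall with a mean of at least 100 counts. Of these, a part is named in the text. Some genes that the rule selects are not reported here.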

Additional observations from a re-analysis of the deposited data

Results flagged for a closer look

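In groups of 4 libraries, the gap between the highest or lowest library and its neighbour exceeded Dixon's limit at 95%, as a share of the group's range, in 4 of 108 groups of the 9 genes, and chance flags about 1 in 20. Neat1 in non-stretched differentiated cells at 1 h was low in replicate 8 (121 CPM, the others between 177 and 179 CPM, gap 0.975 of the range). Malat1 in stretched myoblasts at 6 h was high in replicate 7 (980 CPM, the others at most 488 CPM, gap 0.831). Kcnq1ot1 was high in that same library (8.87 CPM, the others at most 3.10 CPM, gap 0.901). Kcnq1ot1 was also high in stretched differentiated cells at 6 h in replicate 9 (7.94 CPM, the others at most 3.04 CPM, gap 0.872).

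In 6 of 81 pairs of stretch comparisons that share a stage or a time, all 4 stretched libraries lay above the control mean in one comparison and all 4 below it in the other. The difference between the comparisons was not tested. In myoblasts, the log2 fold change at 3 h exceeded that at 6 h by 0.48 for Snhg1 (0.25 and -0.24), by 0.31 for Snhg5 (0.11 and -0.20), by 0.37 for Snhg12 (0.24 and -0.13) and by 0.98 for Gm26813 (0.52 and -0.46). For Gm26813 the value at 1 h exceeded that at 6 h by 0.70. For Snhg12 the value at 1 h minus that at 3 h was -0.60.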

How the results depend on the processing

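Of 93 counts of the genes past both limits under an alternative that kept all libraries, 82 were within 1.5 times the count reported and 11 were not. Without the fold limit the counts were 4, 5 and 4 in myoblasts at 1 h, 3 h and 6 h, 2 in differentiated cells at 3 h, 3 for time in myoblasts at 3 h, and 1 and 6 for the experiments in myoblasts and differentiated cells. With the experiment as a covariate, 1 gene (Neat1, log2 fold change -0.82) was past the limits in differentiated cells at 1 h and 1 (Kcnq1ot1, 0.62) for time in myoblasts at 3 h. Without a filter on low counts the latter count was also 1. Leaving out each library gave counts of 1 to 1 in myoblasts at 1 h, 0 to 1 at 3 h and at 6 h, 0 to 1, 1 to 2 and 0 to 0 in differentiated cells at 1 h, 3 h and 6 h, 6 to 6 for the stages, 0 to 1 for time in myoblasts at 3 h, 0 to 1 for the experiments in differentiated cells, and 0 to 0 for the other time and experiment comparisons. The genes that reached the limits were Gm26813 in myoblasts (0.62 without the 3 h control replicate 8, 0.59 without the stretched replicate 10, and -0.65 at 6 h without the stretched replicate 8), Neat1 in differentiated cells (-1.33 at 1 h without the stretched replicate 9, -0.80 at 3 h without the control replicate 8), and Kcnq1ot1 (0.77 for time in myoblasts without the 3 h control replicate 7). No called difference changed sign. Neat1 in myoblasts at 1 h ranged from -2.01 to -1.62 and Gm26813 in differentiated cells at 3 h from 0.98 to 1.12 over the left-out libraries, and both were past the limits in 15 of 15 alternatives, as the 6 genes of the stage test were in 30 of 30. The cause of these changes was not tested.

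Stretched and non-stretched libraries with the same replicate number had deviations that correlated between -0.066 and 0.105 over all genes kept by the filter. The numbers were not taken as pairs. Differences between experiments were tested apart from this, as given above. With the replicate block, 1 of the genes (Kcnq1ot1, 0.61) was called for time in myoblasts at 3 h, and no other count of these genes changed.

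Over all genes, counts of calls that moved by over 1.5 times, besides those without the fold limit (884, 4719 and 4060 in myoblasts, 103, 3443 and 3438 in differentiated cells, 14621 for the stages), were those in differentiated cells at 1 h (42, and 66 without a filter or with the covariate, 97 by DESeq2 and 126 with all libraries of the stage), those of time (in myoblasts 14 at 3 h, between 0 by DESeq2 and 26 with the block, and 20 at 6 h, up to 45; in differentiated cells 15 at 6 h, up to 30) and those between experiments without a filter (31 and 122 in myoblasts, 203 and 317 in differentiated cells). Counting depth limits Gm26813 and Kcnq1ot1 most.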
